A study of Mus musculus with 3 samples.

Results

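Keratinocytes of the mouse hair follicle that carried transcripts of both Sostdc1 and Aldh3a1 were picked out of single-cell RNA sequencing (scRNAseq) of back skin. They were chosen by measured counts of unique molecular identifiers (UMIs, each standing for 1 captured transcript). A kept cell needed at least 2 UMIs of Sostdc1 and at least 2 of Aldh3a1, Krt14 and Krt5 together at 0.3% or more of its UMIs, and Krt79 under 0.2%. The rule found 488 of 8851 kept cells. P38 gave 88 of its 2109 kept cells, the 6 months library gave 66 of 3502 and the 12 months library 334 of 3240. These cells are called members. The 3 libraries came from untreated wildtype skin, 1 library per age, prepared with the 10x Genomics 3ʹ version 3 chemistry. P38 was male and in catagen (regression of the follicle), and 6 months was female with mostly anagen (growing) follicles. The 12 months library was male with telogen (resting) and anagen follicles. Per the methods, the mice carried an H2BGFP reporter driven by the Krt14 promoter and the cells were sorted by flow cytometry. The labels instead speak of total back skin and name no sort. Age cannot be told apart from hair cycle stage, animal, library and, against 6 months, sex.

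Sostdc1 encodes a secreted protein that binds BMP ligands and also modulates Wnt signalling, and it takes part in the patterning of teeth and hair follicles. Aldh3a1 encodes an aldehyde dehydrogenase that oxidises reactive aldehydes, and it is a classical target gene of the aryl hydrocarbon receptor, a ligand-activated transcription factor encoded by Ahr. Krt14 and Krt5 are the keratin pair of basal keratinocytes. Krt79 marks the funnel of the upper follicle and the sebaceous duct, so the limit on Krt79 leaves such cells out. On mm10, Sostdc1 lies on chromosome 12, 36314139 to 36318452 and Aldh3a1 on chromosome 11, 61207537 to 61218421, both on the forward strand.

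Members held 1770369, 1166399 and 4072124 UMIs in all at P38, 6 months and 12 months, with medians of 19718.5, 17024.5 and 11174 UMIs per cell. All other kept cells that met the Krt14/Krt5 and Krt79 limits are called other keratinocytes, and they include the outer bulge and interfollicular basal cells described further on. They numbered 1655, 2376 and 1604, with medians of 15652, 595 and 12254 UMIs. At 6 months most keratinocyte barcodes held few UMIs. In that library the limits on kept cells also left more cells than the study states, and the reason was not tested. Of the kept barcodes, 81 occurred in both the 6 months and 12 months libraries, 3 in P38 and 6 months, and 1 in P38 and 12 months. No barcode was a member in more than 1 library, and 3 members at 12 months had a barcode kept in another library too. Scrublet called 4, 0 and 7 kept cells as doublets, and these calls were not used to take cells out.

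Levels are given as CPM, the UMIs of a gene for each 1000000 UMIs summed over a cell class in 1 library, always in the order P38, 6 months and 12 months. The genes of the rule are described without a test. Sostdc1 in members was at 349.6, 566 and 764 CPM, with exact Poisson 95% intervals of 323 to 378, 524 to 611, 737 to 791. Aldh3a1 was at 246, 300.1 and 377 CPM, with intervals of 224 to 271, 269.5 to 333, 358 to 396. All intervals cover counting error only. Each member had to hold 2 UMIs of both genes whatever its depth, so no difference between libraries is read from these levels.

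Many cells lay near the limits. Among members, 22, 10 and 33 held exactly 2 UMIs of Sostdc1 and 24, 21 and 98 exactly 2 of Aldh3a1. Just outside, 50, 12 and 30 cells held 1 UMI of Sostdc1 with at least 2 of Aldh3a1, and 33, 39 and 117 held 1 UMI of Aldh3a1 with at least 2 of Sostdc1. The limit on Krt79 left out 3, 6 and 19 cells that met the other limits. Medians per member were 5, 8 and 7 UMIs of Sostdc1 and 4, 4 and 4 of Aldh3a1.

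Both genes were also read in cells outside the keratinocytes. In cells with the leukocyte gene Ptprc, a UMI of Aldh3a1 was present in 2.20% and 1.06% of 91 and 94 cells at 6 and 12 months, and one of Sostdc1 in 3.30% and 1.06% (median 4970 and 6332 UMIs). These shares serve as the background of free RNA. In cells rich in Col1a1 and Dcn, matrix genes of fibroblasts, Aldh3a1 reached 284 and 180.3 CPM, with a UMI in 53.4% and 66.3% of these cells. Other keratinocytes held Sostdc1 at 134, 121 and 114 CPM and Aldh3a1 at 34.1, 17.7 and 31.5 CPM. In the outer bulge Sostdc1 was at 292, 213 and 282 CPM and Aldh3a1 at 4.11, 2.63 and 58.9 CPM. Krt79 upper follicle cells, with Krt79 at 0.2% or more, held Sostdc1 at 68.1, 99.9 and 237 CPM and Aldh3a1 at 85.5, 40.7 and 225 CPM.

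The share of members was highest in the 12 months library. Of the Krt14/Krt5 cells, members made up 4.75% of 1854 at P38 (exact binomial 95% interval 3.82 to 5.82), 2.46% of 2688 at 6 months (1.90 to 3.11) and 16.6% of 2018 at 12 months (15 to 18.2). Among cells with at least 1000 genes the shares were 4.95%, 6.48% and 17.3%, so P38 and 6 months changed order. With cells of at least 3000 UMIs thinned to 3000, 3 of 1769, 5 of 991 and 81 of 1928 cells met the rule, or 0.170%, 0.505% and 4.20%. Shallower cells were left out there, 96, 1893 and 213 of the kept cells. The interval of 12 months lay above both others under each of these settings. With 1 library per age there is no test between ages, and the part of the sort in these shares was not tested.

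**Figure D1:**
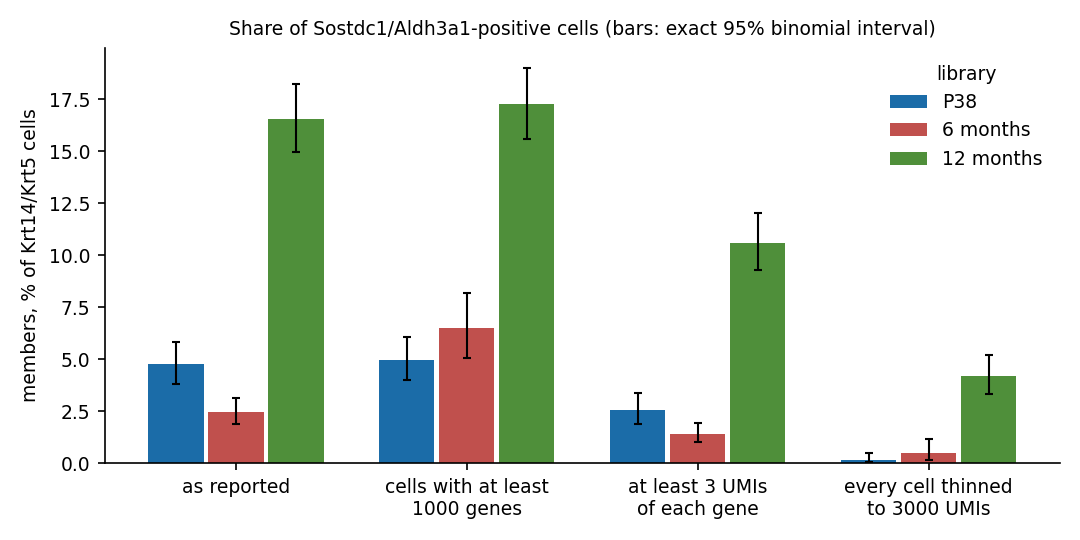
Members as a share of Krt14/Krt5 cells (vertical axis, %) in the P38, 6 months and 12 months libraries, as reported and under 3 other settings, with exact binomial 95% intervals. The 12 months column is the highest in each setting, and P38 (4.75%) and 6 months (2.46%) change order among cells with at least 1000 genes (4.95% and 6.48%).

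Sox9, which the rule did not use, gave a mixed answer on the follicle in the name of these cells. Sox9, a transcription factor of the follicle epithelium, was at 513, 489.5 and 323 CPM in members against 41.7, 8.59 and 12.2 CPM (4.26 ± 0.32 SE, edgeR adjusted p = 1.76e-06) in interfollicular basal cells, where values before the ± sign are log2 fold changes. Interfollicular basal cells were those with at least 2 UMIs each of Ly6a and Thbs1, none of Cd34 or Sostdc1 and Krt10 under 0.2%. Every library of members lay above every library of these cells, whose own choice used an absence of Sostdc1. Against other keratinocytes Sox9 did not pass, at 949, 723 and 134 CPM in those cells (-0.04 ± 0.38 SE, edgeR adjusted p = 0.986), and members were the lower class at P38 and 6 months. A further 5 genes had been put forward as markers together with the rule, with earlier results of these data known. Zmynd15 encodes a zinc finger protein known as a repressor of transcription in male germ cells, Vsnl1 a neuronal calcium sensor, Gata6 a transcription factor of the upper follicle and sebaceous duct, Ntrk2 the receptor of brain-derived neurotrophic factor, and Tnfrsf4 the costimulatory receptor OX40.

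Of these 5 genes, 3 were called higher in members than in other keratinocytes, where 0.91% of all 11874 genes tested were called higher. Since the 5 were chosen with earlier results of these data known, that count is description and no independent support. Vsnl1 was at 59.9, 94.3 and 95.8 CPM in members against 23.3, 32.3 and 15.3 CPM (1.90 ± 0.25 SE, edgeR adjusted p = 0.0241). Gata6 was at 27.7, 41.2 and 48.9 CPM in members against 12.7, 9.71 and 11.3 CPM (1.81 ± 0.26 SE, edgeR adjusted p = 0.0285). For both genes every library of members lay above every library of other keratinocytes. Zmynd15 was at 9.6, 80.6 and 58.2 CPM in members against 3.91, 15.8 and 12.6 CPM (2.08 ± 0.26 SE, edgeR adjusted p = 0.022), higher within each library although its level in P38 members was below that of other keratinocytes at the later ages. Ntrk2 was at 12.4, 77.2 and 96.3 CPM in members against 5.67, 9.86 and 30.8 CPM (1.98 ± 0.37 SE, edgeR adjusted p = 0.0512) and did not pass. Tnfrsf4 was at 65.5, 40.3 and 55.5 CPM in members against 42.9, 24.8 and 38.7 CPM (0.62 ± 0.16 SE, edgeR adjusted p = 0.104) and did not pass either. Without 6 months the edgeR adjusted p was 0.0872 for Zmynd15, 0.0875 for Vsnl1 and 0.104 for Gata6, and without P38 it was 0.0546 for Vsnl1. Ntrk2 passed without 12 months (edgeR adjusted p = 0.042).

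Not every member held a UMI of each of these 5 genes, and a difference among members was not tested. None of the 5 had a UMI in 10.2%, 9.09% and 9.58% of members, against 49.2%, 79.0% and 47.2% of other keratinocytes. All 5 were seen together in 0, 1 and 6 members. These shares are not corrected for depth, and at 6 months the median was 17024.5 UMIs in members and 595 in other keratinocytes. A UMI of Vsnl1 was present in 55.7%, 75.8% and 59.3% of members. Gata6 was seen in 29.5%, 30.3% and 30.2%, close to even over the libraries. Ntrk2 was seen in 17.0%, 48.5% and 51.2%, with the lowest share at P38. After thinning to 3000 UMIs, Vsnl1 was left in 13.6%, 28.8% and 24.6% of members and in 5.83%, 9.62% and 5.86% of other keratinocytes. Other keratinocytes below that depth were left out of these shares. Before thinning, 0 of 91 and 0 of 94 Ptprc cells held a UMI of Vsnl1, which allows shares of up to 3.30% and 3.19%.

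Vsnl1 and Gata6 had opposite orders in the neighbouring classes. Vsnl1 was at 42.7, 73.3 and 45.7 CPM in the outer bulge (cells with at least 2 UMIs each of Cd34 and Postn, genes of follicle stem cells) and at 1.99, 4.62 and 14.9 CPM in Krt79 upper follicle cells. Gata6 was at 8.76, 1.97 and 22.8 CPM in the outer bulge and at 69.1, 49.0 and 122 CPM in Krt79 upper follicle cells. Members stood between both classes in Gata6, above the bulge (2.15 ± 0.53 SE, edgeR adjusted p = 0.0359) and below the Krt79 cells (-1.13 ± 0.24 SE, edgeR adjusted p = 0.0161). In Vsnl1 they stood above the Krt79 cells (3.66 ± 0.37 SE, edgeR adjusted p = 0.000969) and did not pass the test against the bulge (0.68 ± 0.20 SE, edgeR adjusted p = 0.0629).

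**Figure D2:**
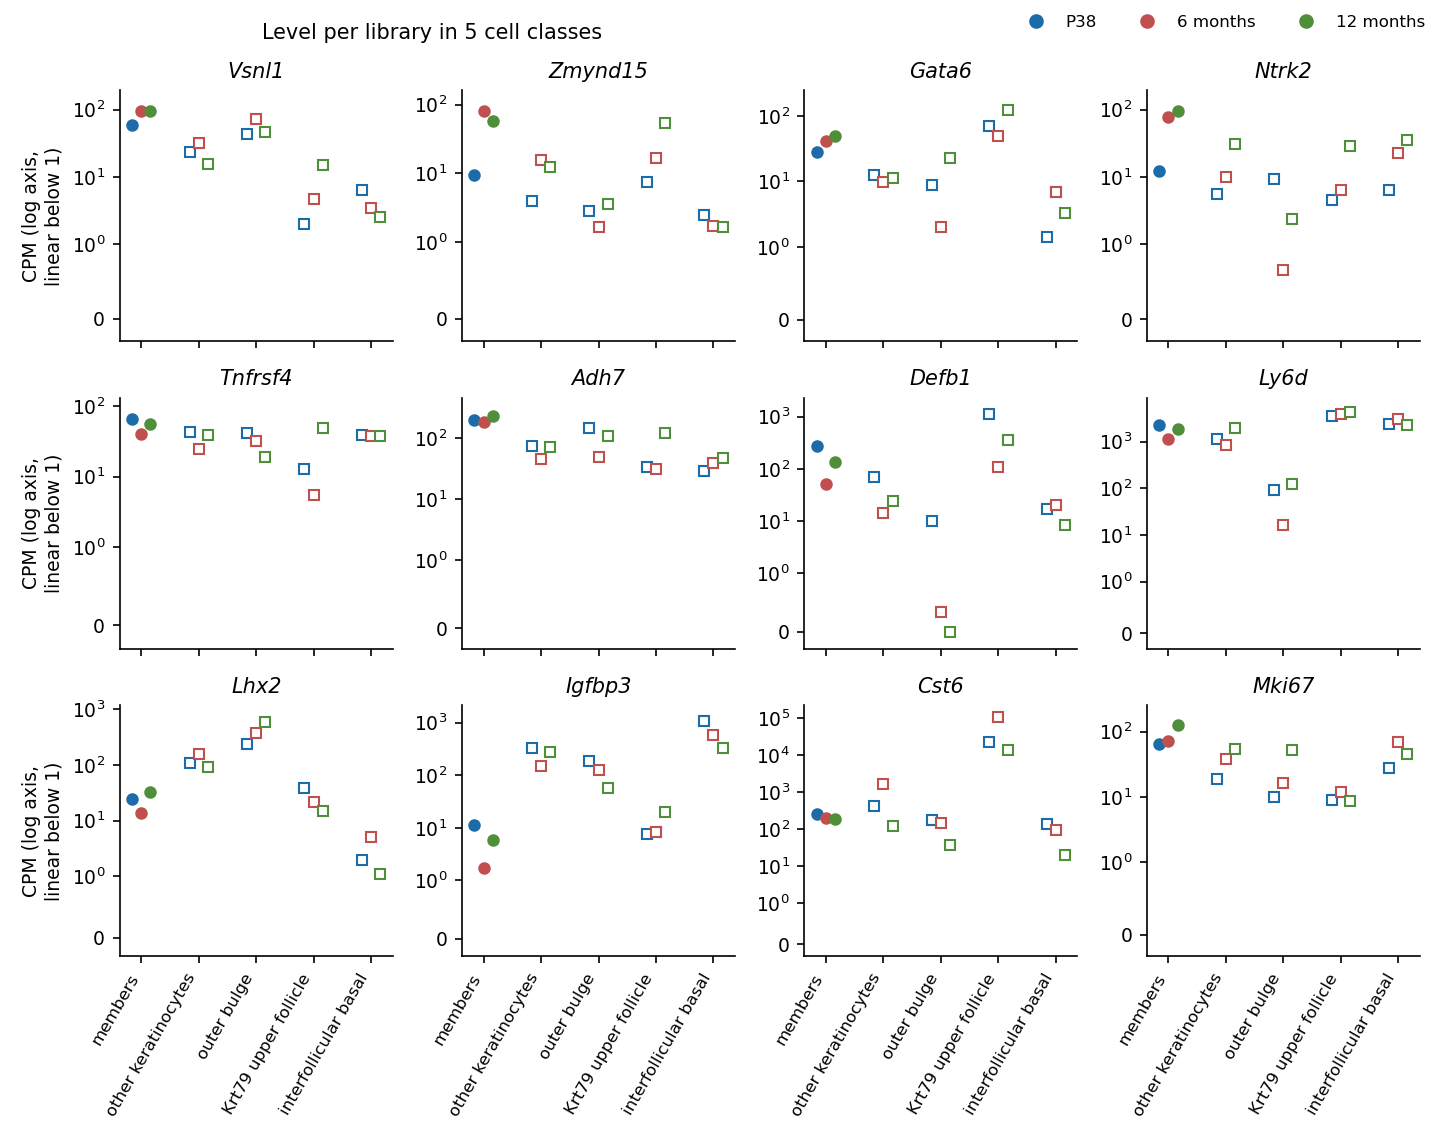
Level of 12 genes in members (filled circles) and in 4 other cell classes (open squares), 1 point per library, in CPM on a log axis that is linear below 1. Members lie above other keratinocytes in Vsnl1 (59.9, 94.3 and 95.8 against 23.3, 32.3 and 15.3 CPM) and far below Krt79 upper follicle cells in Cst6.

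Against other keratinocytes, 225 genes were called, 1.89% of those tested. Of these, 108 were higher in members and 117 (0.985%) lower. Akr1c18, a steroid reductase that inactivates progesterone, was at 101, 570.1 and 6.88 CPM in members against 11.6, 86.3 and 2.33 CPM (2.66 ± 0.30 SE, edgeR adjusted p = 0.0175). It was higher in members within each library, yet its level varied more between libraries than between the classes, and 15.9%, 43.9% and 0.599% of members held a UMI. Defb1, a beta-defensin with antimicrobial activity, was at 278, 52.3 and 136 CPM in members against 70.7, 14.1 and 24.4 CPM (2.15 ± 0.16 SE, edgeR adjusted p = 0.00615).

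Members exceeded other keratinocytes in every pairing of libraries for the next 4 genes, as 12.1% of all genes did in one direction or the other. Pdlim4, a PDZ and LIM domain protein of the actin cytoskeleton, was at 41.8, 98.6 and 77.1 CPM in members against 15.1, 32.0 and 14 CPM (1.90 ± 0.21 SE, edgeR adjusted p = 0.0175). Rgs10, a regulator of G protein signalling, was at 58.2, 126 and 81.3 CPM in members against 18.3, 25.8 and 26.4 CPM (1.88 ± 0.21 SE, edgeR adjusted p = 0.0175). Acsl4, which activates polyunsaturated fatty acids, was at 127, 139 and 112 CPM in members against 53.9, 32.0 and 27.2 CPM (1.82 ± 0.23 SE, edgeR adjusted p = 0.023). The galectin gene Lgals9 was close to these in size of change, at 44.6, 80.6 and 70.0 CPM in members against 17.1, 22.3 and 18.4 CPM (1.76 ± 0.18 SE, edgeR adjusted p = 0.0175). Pkib, an inhibitor of protein kinase A, also did not overlap, at 74.6, 78.0 and 104 CPM in members against 27.7, 17.2 and 43.2 CPM (1.62 ± 0.24 SE, edgeR adjusted p = 0.0309). Rassf9 was at 305, 190.3 and 44.0 CPM in members against 81.1, 74.5 and 18.7 CPM (1.54 ± 0.18 SE, edgeR adjusted p = 0.0175), overlapping between classes, both of which were lowest at 12 months.

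Genes lower in members included secreted factors and a gap junction gene. Igfbp3, a binding protein of insulin-like growth factors, was at 11.3, 1.71 and 5.89 CPM in members against 323, 149 and 273 CPM (-5.37 ± 0.25 SE, edgeR adjusted p = 0.00103). It kept its call without each library in turn, with edgeR adjusted p of 0.00926, 0.00752 and 0.00181 without P38, 6 months and 12 months. Nppc, the C-type natriuretic peptide, was at 14.7, 6.00 and 4.42 CPM in members against 285, 279.7 and 22.9 CPM (-3.99 ± 0.44 SE, edgeR adjusted p = 0.0175). Gja1, connexin 43, was at 100, 49.7 and 27.3 CPM in members against 817, 2249.8 and 253 CPM (-3.82 ± 0.44 SE, edgeR adjusted p = 0.0175). S100a4, a calcium-binding protein, was at 44.1, 21.4 and 52.6 CPM in members against 419.9, 229 and 149 CPM (-2.62 ± 0.35 SE, edgeR adjusted p = 0.0245). In these 4 genes the libraries of members lay below all those of other keratinocytes. The amino acid transporter gene Slc7a8 was at 1.69, 0 and 0.246 CPM in members against 28.9, 135 and 3.66 CPM and also passed, as did Car6, a secreted carbonic anhydrase, at 1.69, 0 and 0 against 3.22, 152 and 3.27 CPM. Them5, a thioesterase, was at 10.7, 5.14 and 0.982 CPM in members against 58.4, 83.1 and 11.5 CPM (-3.11 ± 0.29 SE, edgeR adjusted p = 0.0142), without overlap. Igfbp7 was at 2.26, 2.57 and 28.0 CPM in members against 21.3, 87.5 and 88.7 CPM (-2.60 ± 0.44 SE, edgeR adjusted p = 0.0445). Mfge8, a secreted milk fat globule protein, was at 14.1, 4.29 and 4.67 CPM in members against 79.0, 114 and 13.3 CPM (-2.66 ± 0.42 SE, edgeR adjusted p = 0.0356). Both overlapped between the classes. Without P38 and without 6 months the edgeR adjusted p was 0.164 and 0.0763 for Igfbp7 and 0.164 and 0.0673 for Mfge8.

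The number of calls rested on single libraries. It was 31 without P38, 27 without 6 months and 560 without 12 months, of which 24, 26 and 169 were among the 225. Of 46 named genes called in this comparison, 12, 9 and 43 kept their call without P38, 6 months and 12 months. Akr1c18 lost it without P38 (edgeR adjusted p = 0.109) and without 6 months (0.0837). Several log2 fold changes moved by over 1.5 times on the linear scale. Without 12 months they were -4.17 for Igfbp7, -4.68 for Nppc, -3.28 for S100a4 and -3.78 for Tbx1. For Gja1 the value was -3.18 without 6 months, and for Them5 -3.76 without P38. Without the library as a block, edgeR called 0 genes, with 996 at an unadjusted p under 0.05, and DESeq2 with the block called 496.

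**Figure D3:**
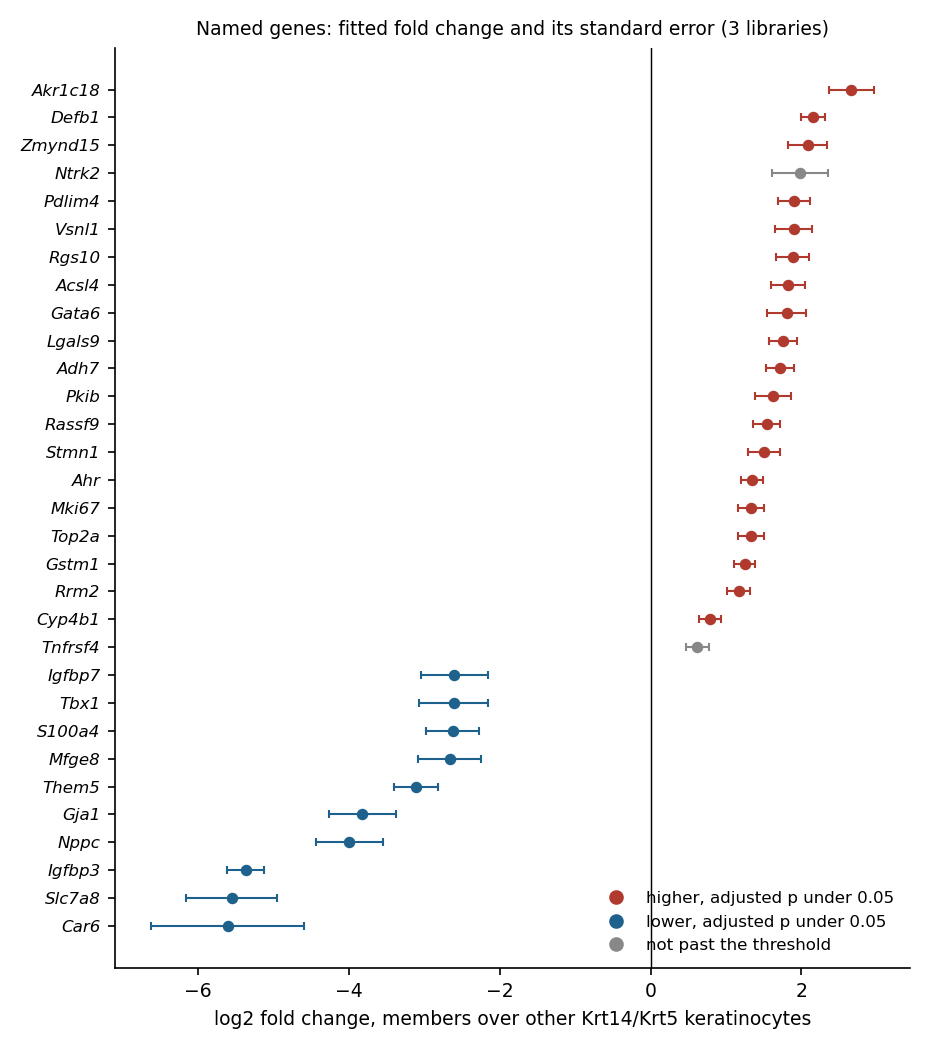
Fitted log2 fold change of members over other keratinocytes with its standard error (horizontal axis) for named genes, 3 libraries, with genes called higher in red, lower in blue and not called in grey. Apart from Car6 and Slc7a8, values run from 2.66 for Akr1c18 to -5.37 for Igfbp3. In members Akr1c18 rested on 179, 665 and 28 UMIs and Igfbp3 on 20, 2 and 24. Values of Car6 and Slc7a8 rest on at most 3 UMIs in any library of members and depend on the prior count of the fit.

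Detoxification genes were among those higher in members than in other keratinocytes. Of 40 tested genes of xenobiotic and antioxidant metabolism, 4 were called higher and 0 lower, as were 0.91% and 0.985% of all genes. The median log2 fold change was 0.18 against -0.01 over all genes. Adh7, an alcohol dehydrogenase that also oxidises retinol, was at 198, 179 and 223 CPM in members against 73.3, 45.6 and 69.8 CPM (1.72 ± 0.19 SE, edgeR adjusted p = 0.0175). Gstm1, a glutathione transferase, was at 156, 178 and 143 CPM in members against 61.8, 95.5 and 53.8 CPM (1.25 ± 0.14 SE, edgeR adjusted p = 0.0175). Ahr itself was at 156, 117 and 152 CPM in members against 58.2, 47.8 and 63.9 CPM (1.35 ± 0.14 SE, edgeR adjusted p = 0.0175). In these 3 genes the classes did not overlap. Cyp4b1, a fatty acid and xenobiotic hydroxylase, was at 71.2, 18.9 and 75.4 CPM in members against 39.9, 13.1 and 40.4 CPM (0.79 ± 0.15 SE, edgeR adjusted p = 0.0499) and passed by little. Without P38, the edgeR adjusted p was 0.062 for Adh7, 0.135 for Gstm1 and 0.109 for Ahr, and without 6 months it was 0.0508 for Gstm1 and 0.0555 for Ahr. Nqo1, a quinone reductase, was at 15.8, 35.2 and 18.4 CPM in members against 10.7, 12.4 and 9.06 CPM (1.06 ± 0.26 SE, edgeR adjusted p = 0.0979) and did not pass. No gene was called among 13 other aldehyde dehydrogenases (median 0.23) and 14 genes of retinoid metabolism and signalling (median 0.14). Against Krt79 upper follicle cells the xenobiotic and antioxidant list was mixed, with 7 higher and 6 lower of 38 tested, at a median of 0.01. Over all genes 7.35% were higher and 8.96% lower in that comparison. Of the 4 genes called above, Adh7 alone was called higher against Krt79 cells. Against the outer bulge the same list had 5 higher and 4 lower of 36 tested, where 7.72% of all genes were higher and 8.68% lower. Of the same 4 genes, only Adh7 and Ahr were called higher than in the bulge.

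Promoters are shown for 4 of the called genes because Ahr, whose protein binds a short DNA core, was itself higher in members. RefSeq windows (GRCm38.p6) matched 6 of 11 genes looked for, namely Adh7, Gstm1, Cyp4b1, Vsnl1, Ntrk2 and Tnfrsf4, and not Sostdc1, Aldh3a1, Zmynd15, Gata6 and Ahr. The 250 bases before a RefSeq start are printed 5′ to 3′ on the strand of the gene. The receptor core GCGTG, read on either strand (CACGC), stands in capitals. The windows are chr3:108017974-108018223 on the reverse strand for Gstm1, chr3:138217523-138217772 on the forward strand for Adh7, chr4:115647722-115647971 on the reverse strand for Cyp4b1 and chr12:11436579-11436828 on the reverse strand for Vsnl1.
Gstm1: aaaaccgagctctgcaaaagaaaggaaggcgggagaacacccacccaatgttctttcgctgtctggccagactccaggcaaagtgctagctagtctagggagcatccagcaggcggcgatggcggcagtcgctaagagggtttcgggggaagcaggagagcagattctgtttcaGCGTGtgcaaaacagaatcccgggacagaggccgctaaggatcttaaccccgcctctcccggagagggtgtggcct
Adh7: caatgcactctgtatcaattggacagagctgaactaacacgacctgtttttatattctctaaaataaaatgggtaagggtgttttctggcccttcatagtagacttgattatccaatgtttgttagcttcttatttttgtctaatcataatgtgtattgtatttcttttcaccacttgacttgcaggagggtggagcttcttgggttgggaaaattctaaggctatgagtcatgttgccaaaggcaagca
Cyp4b1: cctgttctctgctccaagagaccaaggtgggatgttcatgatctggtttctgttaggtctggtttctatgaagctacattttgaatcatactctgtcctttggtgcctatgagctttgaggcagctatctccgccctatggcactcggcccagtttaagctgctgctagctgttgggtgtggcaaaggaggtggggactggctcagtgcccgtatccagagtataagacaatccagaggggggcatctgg
Vsnl1: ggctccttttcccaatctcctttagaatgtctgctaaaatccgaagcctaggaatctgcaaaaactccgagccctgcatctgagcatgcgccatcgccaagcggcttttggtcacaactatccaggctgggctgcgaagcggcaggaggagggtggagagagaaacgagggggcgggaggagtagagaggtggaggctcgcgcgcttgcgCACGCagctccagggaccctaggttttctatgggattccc
The core occurred once in the window of Gstm1, at -76 from the start, and once in that of Vsnl1, at -40. A second RefSeq start of Gstm1 had the match at -231, and the window of a second start of Vsnl1 held none. The windows of Adh7 and Cyp4b1 did not hold it. Of 32851 such windows of the mouse genome 28.2% held at least 1 match, so a match is a description of the sequence and not a binding site.

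Proliferation genes had more calls than any other list in this comparison. Of 28 tested, 7 were called higher (Mki67, Top2a, Ccna2, Stmn1, Mcm5, Tyms and Rrm2) and 0 lower, at a median log2 fold change of 0.91. Mki67, the Ki-67 antigen of cycling cells, was at 65.0, 72.0 and 126 CPM in members against 19.1, 38 and 53.6 CPM (1.33 ± 0.17 SE, edgeR adjusted p = 0.0241). Top2a, which untangles DNA before division, was at 124, 90.0 and 139 CPM in members against 37.8, 42.0 and 65.0 CPM (1.33 ± 0.17 SE, edgeR adjusted p = 0.0241). Stmn1, a microtubule regulator, was at 398, 412 and 497 CPM in members against 139, 117 and 231 CPM (1.51 ± 0.21 SE, edgeR adjusted p = 0.0285). In these 3 genes the lowest library of members lay above the highest of other keratinocytes. Mki67 lost its call without P38 (edgeR adjusted p = 0.136) and without 6 months (0.0677).

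A UMI of Top2a was present in 40.9%, 39.4% and 20.1% of members, in 10.8%, 7.79% and 13.5% of other keratinocytes and in 15.4% and 5.32% of Ptprc cells at 6 and 12 months. At 3000 UMIs per cell, with shallower cells left out, its shares were 15.9%, 15.2% and 11.4% in members and 3.93%, 4.35% and 7.09% in other keratinocytes. Members were the deeper class at P38 and 6 months and the shallower one at 12 months. The rule asks for set numbers of UMIs per cell, and the part of depth or RNA content in the proliferation calls was not tested. Over all genes, 203 were called among cells with at least 5000 UMIs, 198 of them shared with the 225.

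Transcription factors split in direction. Of 45 tested factors of skin epithelium, 3 were higher (Gata6, Ehf and Zmynd15) and 3 lower (Sox6, Lhx2 and Tbx1). Ehf, an ETS factor of epithelia, was at 149, 83.2 and 54.0 CPM in members against 52.6, 43.2 and 17.8 CPM (1.39 ± 0.15 SE, edgeR adjusted p = 0.0175). Lhx2, which maintains follicle stem cells, was at 24.3, 13.7 and 32.7 CPM in members against 109.7, 156 and 92.7 CPM (-2.22 ± 0.29 SE, edgeR adjusted p = 0.0245). Tbx1, a T-box factor of the bulge, was at 5.08, 6.00 and 13.0 CPM in members against 50.8, 125 and 32.4 CPM (-2.61 ± 0.46 SE, edgeR adjusted p = 0.0464). In all 3 the classes did not overlap. Lhx2 lost its call without P38 (edgeR adjusted p = 0.113) and without 6 months (0.0508). Of 11 tested outer bulge markers, Lhx2 and Tbx1 were lower and 0 higher, at a median of -2.22.

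In the pathways that Sostdc1 acts on, few genes were called against other keratinocytes. Of 12 tested BMP antagonists, Nbl1 alone was called, and it was lower, at 36.2, 38.6 and 42.2 CPM in members against 93.3, 114 and 73.4 CPM (-1.19 ± 0.17 SE, edgeR adjusted p = 0.0285). Of 20 BMP ligands, receptors and targets, Bmp3 and Msx2 were lower, with at most 3.95 CPM in members. Of 31 Wnt ligands and receptors none was called (median -0.43). Of 15 Wnt inhibitors and targets, Apcdd1 and Tcf7l1 were called. Apcdd1, a membrane inhibitor of Wnt signalling, was at 36.2, 66.9 and 91.6 CPM in members against 12.5, 19.7 and 46.8 CPM (1.42 ± 0.22 SE, edgeR adjusted p = 0.0356). Tcf7l1, a repressor of Wnt targets in stem cells, was at 3.95, 4.29 and 2.46 CPM in members against 23.7, 27.9 and 6.09 CPM (-2.13 ± 0.32 SE, edgeR adjusted p = 0.0322).

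The remaining lists gave few calls. Among 17 keratins, Krt7, a keratin of simple and ductal epithelia, was higher, at 7.34, 10.3 and 26.5 CPM in members against 0.843, 2.82 and 4.70 CPM (2.49 ± 0.31 SE, edgeR adjusted p = 0.022), while Krt16 and Krt25 were lower. Among 33 junction genes, Nectin4, F11r and Gja1 were lower. One gene was lower in each of the lists of axon guidance and nerve contact (Egfl6, of 29) and of keratinocyte chemokines and cytokines (Cxcl14, of 23). Of 15 calcium sensors, Vsnl1 was higher and S100a4 lower. No gene was called among the TNF receptor family (21 tested), MHC class II (10) and class I genes (27), Hedgehog (13), Notch (13), EGF (11), basement membrane (37) and immediate early and heat shock genes (28).

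Marker lists of other cells gave few calls as well. None was called for interfollicular basal (8 tested) and suprabasal cells (8), sebaceous gland (12), T cells (2), fibroblasts (8), endothelium (3), melanocytes and Schwann cells (6) and Merkel cells (2). The upper follicle list (13) had Gata6 higher and Tbx1 lower. Lower genes were Egfl6 in the upper bulge list (10), Tgm5 in that of inner bulge and hair germ (10), Krt25 and Msx2 in that of root sheath and shaft (8) and Mfge8 in that of Langerhans cells and macrophages (6). By summed level, the 9 fibroblast markers came to 77.4, 46.3 and 212 CPM in members and 396, 409.7 and 226 CPM in other keratinocytes, with 5, 4 and 0 of them at 0 in members. The 11 T cell markers came to 3.95, 11.1 and 24.3 CPM in members, with 8, 8 and 4 at 0, and the 9 Merkel cell markers to 2.82, 5.14 and 1.23 CPM. The 14 Langerhans cell and macrophage markers, which include Epcam of keratinocytes, came to 999, 537 and 458 CPM, against 1353, 665 and 299 CPM. The 13 sebaceous gland markers came to 1178, 1028 and 227 CPM in members and 2773, 3259 and 646 CPM in Krt79 upper follicle cells.

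Set against the outer bulge, whose cells were chosen by Cd34 and Postn, members differed in 1629 of 9933 genes (16.4%). Of these, 767 (7.72%) were higher and 862 (8.68%) lower. This comparison and the following ones use the same member cells as the first and are not independent of it. Stem cell genes of the bulge were lower in members. Lhx2 was at 24.3, 13.7 and 32.7 CPM in members against 240.4, 373 and 588 CPM (-3.97 ± 0.25 SE, edgeR adjusted p = 0.000739). Lgr5, a receptor of R-spondins in follicle stem cells, was at 4.52, 0 and 10.6 CPM in members against 127, 147 and 161 CPM (-4.63 ± 0.48 SE, edgeR adjusted p = 0.0017). Krt15, the classical bulge keratin, was at 4104, 3038 and 5053 CPM in members against 11270, 7693 and 10155 CPM (-1.21 ± 0.15 SE, edgeR adjusted p = 0.00305). None of the 3 overlapped between the classes, as in 25.3% of all genes. Of 9 tested outer bulge markers, 8 were lower and 0 higher. Cd34 and Postn, which chose the bulge cells, are themselves markers of this list. Genes that go along with them could differ through that choice alone, and its part in these calls was not tested. The count of called genes was 871 without P38 and 1054 without 12 months.

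Genes nearly unread in 1 of the classes had the largest fitted changes against the bulge, and for these only levels are given. Akr1c18 in the bulge rested on 2, 3 and 0 UMIs (0.358, 0.986 and 0 CPM). Pyy, a peptide of the neuropeptide Y family, was at 31.1, 448 and 8.84 CPM in members and 0.715, 1.64 and 0 CPM in the bulge. Defb1 was at 10.0, 0.329 and 0 CPM in the bulge. All 3 passed as higher in members, and so did the interferon-inducible gene Ifi202b, at 865, 313 and 22.6 CPM in members and 24, 2.30 and 1.20 CPM in the bulge. Lower in members were Igfbp5, at 0, 0.857 and 2.70 CPM against 13.4, 104 and 101 CPM, and Col8a2, a short-chain collagen, at 2.82, 0 and 0.982 CPM against 88.0, 32.9 and 94.9 CPM. Scrg1 and Pdlim3 were lower as well, with at most 5 UMIs in any library of members, and Slc7a8 again.

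Several BMP antagonists other than Sostdc1 were lower than in the bulge. Of 11 tested, 5 were lower (Grem1, Fstl1, Bambi, Smad6 and Nbl1) and 0 higher, at a median of -1.43 against -0.02 over all genes. Grem1, a secreted BMP antagonist, was at 20.3, 0.857 and 39.3 CPM in members against 227, 119 and 494 CPM (-3.88 ± 0.38 SE, edgeR adjusted p = 0.00138). Of 19 BMP ligands, receptors and targets, 7 were lower and 2 higher. The BMP target Id2 was at 66.7, 54.0 and 111 CPM in members against 299, 388 and 359 CPM (-2.16 ± 0.23 SE, edgeR adjusted p = 0.00186). The ligands Bmp4 and Bmp7 were the higher ones. Bmp7 was at 40.7, 53.2 and 45.7 CPM in members against 23.8, 9.53 and 25.2 CPM (1.37 ± 0.38 SE, edgeR adjusted p = 0.0489). Of 27 Wnt ligands and receptors, 7 were higher (Wnt3, Wnt4, Wnt6, Wnt10a, Wnt16, Fzd10 and Lrp4) and 8 lower (Wnt5b, Fzd1, Fzd2, Fzd3, Fzd7, Lrp6, Lgr4 and Lgr5).

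Many antigen presentation and proliferation genes were higher than in the bulge. Of 24 tested genes of MHC class I presentation and interferon response, 13 were higher and 0 lower, at a median of 0.69. B2m, the light chain of class I molecules, was at 1888, 1616 and 2076 CPM in members against 834, 669.7 and 1094 CPM (1.18 ± 0.14 SE, edgeR adjusted p = 0.00294). Nlrc5, the transactivator of class I genes, was at 24.9, 23.1 and 22.3 CPM in members against 7.51, 7.56 and 8.41 CPM (1.65 ± 0.25 SE, edgeR adjusted p = 0.00652). Of 28 proliferation genes 18 were higher, and the cell cycle inhibitor Cdkn1b was lower. Ahr was at 156, 117 and 152 CPM in members against 17.0, 6.57 and 10.8 CPM (3.67 ± 0.27 SE, edgeR adjusted p = 0.000739). Ly6d, a surface protein of upper follicle and epidermis, was at 2267, 1151 and 1845 CPM in members against 92.4, 16.1 and 126 CPM (4.88 ± 0.45 SE, edgeR adjusted p = 0.00125). In each of these genes given with levels the classes did not overlap. Of 34 basement membrane and hemidesmosome genes, 13 were lower and 0 higher.

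Set against Krt79 upper follicle cells, members differed in 1383 of 8478 genes (16.3%), with 623 (7.35%) higher and 760 (8.96%) lower. Of 14 tested upper follicle markers, 12 were lower in members and 0 higher. Krt79, itself a marker of this list, chose both classes, members below its limit and these cells at or above it. Genes that go along with Krt79 could differ through that choice alone, and its part in these calls was not tested. Cst6, a cysteine protease inhibitor of cornifying epithelium, was at 265, 201 and 184 CPM in members against 23683, 112545 and 14381 CPM (-7.35 ± 0.72 SE, edgeR adjusted p = 0.000887). Defb6, a beta-defensin, was at 663, 133 and 490.4 CPM in members against 12311, 3211 and 12779 CPM (-4.63 ± 0.27 SE, edgeR adjusted p = 0.000111). Krt17, a keratin of the outer root sheath, was at 1839.7, 1413 and 1191 CPM in members against 7754, 10474 and 5088 CPM (-2.48 ± 0.28 SE, edgeR adjusted p = 0.00144). None of the 3 overlapped, as in 27.2% of all genes. The kallikrein gene Klk6 was at 0.565, 2.57 and 0 CPM in members against 36.8, 3512 and 23.6 CPM, and Fa2h, a fatty acid hydroxylase of sebum and sphingolipids, at 2.26, 1.71 and 0 against 35.8, 213 and 33.5 CPM. Both passed as lower, with Teddm3 and Pinlyp. The genes with the largest increase besides Vsnl1 were Ctnnal1 and 3 genes of dividing cells, Cenpf, Pclaf and Hist1h2ap. Ctnnal1, a relative of alpha-catenin, was at 49.7, 66.0 and 48.6 CPM in members against 2.98, 4.62 and 7.44 CPM (3.42 ± 0.33 SE, edgeR adjusted p = 0.000826).

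Adhesion genes differed in both directions between these classes. Of 31 tested basement membrane and hemidesmosome genes, 18 were higher in members and 0 lower, at a median of 1.33. Of 27 junction genes, 18 were lower and 2 higher (Cdh3 and Cdh13). Col17a1, a hemidesmosomal collagen, was at 559, 499 and 555 CPM in members against 117, 66.6 and 160.1 CPM (2.18 ± 0.23 SE, edgeR adjusted p = 0.00106). Dsg1a, a desmosomal cadherin of differentiating layers, was at 101, 74.6 and 125 CPM in members against 207, 141 and 337 CPM (-1.26 ± 0.18 SE, edgeR adjusted p = 0.00346). Of 7 BMP antagonists tested, 3 were higher (Fst, Smad7, Htra1) and 0 lower than in Krt79 cells. Of 26 proliferation genes 21 were higher, and the cell cycle inhibitors Cdkn1a and Cdkn2b were lower. Mki67 was at 65.0, 72.0 and 126 CPM in members against 8.95, 12.0 and 8.69 CPM (2.91 ± 0.29 SE, edgeR adjusted p = 0.000887). Krt79 cells were shallow at 6 months, at a median of 563.5 UMIs per cell. The count of called genes was 1127 without 6 months and 629 without P38.

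Set against interfollicular basal cells, members differed in 1511 of 9624 genes (15.7%), with 637 (6.62%) higher and 874 (9.08%) lower. Of 43 tested transcription factors, 19 were higher and 6 lower. Foxc1, a forkhead factor of follicle stem cells, was at 48.0, 90.9 and 53.3 CPM in members against 1.67, 2.58 and 0.830 CPM (5.06 ± 0.29 SE, edgeR adjusted p = 2.23e-07), with 6, 3 and 3 UMIs in the interfollicular cells. Lhx2, lower in members than in the bulge, was higher here, at 24.3, 13.7 and 32.7 CPM in members against 1.94, 5.15 and 1.11 CPM (3.35 ± 0.43 SE, edgeR adjusted p = 0.000133). The interfollicular cells were chosen to hold no UMI of Cd34 or Sostdc1. The part of that choice in their low levels of follicle factors was not tested. Of the 5 markers outside the rule, Vsnl1, Gata6, Zmynd15 and Ntrk2 were called higher, and Tnfrsf4 was not (0.33 ± 0.17 SE, edgeR adjusted p = 0.228).

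Of 35 xenobiotic and antioxidant genes, 12 were higher than in interfollicular basal cells (among them Adh7, Gstm1, Ahr, Nqo1, Mgst1 and Cyp1b1) and 2 lower (Cbr2 and Tiparp). Nqo1 was at 15.8, 35.2 and 18.4 CPM in members against 2.78, 2.58 and 5.53 CPM (2.18 ± 0.35 SE, edgeR adjusted p = 0.000701). Igfbp3 was at 11.3, 1.71 and 5.89 CPM in members against 1054, 584 and 335 CPM (-6.67 ± 0.30 SE, edgeR adjusted p = 3.67e-08). Bmp2, a BMP ligand, was at 50.8, 46.3 and 20.9 CPM in members against 154, 203 and 124 CPM (-2.28 ± 0.19 SE, edgeR adjusted p = 4.25e-06). The classes did not overlap in these 3 genes, as in 21.1% of all genes. Fst, follistatin, which binds activins, was at 1087, 977 and 434 CPM in members against 144, 9.45 and 6.09 CPM (4.61 ± 0.56 SE, edgeR adjusted p = 8.75e-05). Of 7 BMP antagonists tested here, Fst was the only one called higher. Called lower were 4 of them (Fstl3, Twsg1, Htra1 and Nbl1), and the median of the list was -0.76. Defb6, lower in members than in Krt79 cells, was higher than in interfollicular cells, at 663, 133 and 490.4 CPM against 43.6, 6.01 and 8.30 CPM. Akr1c18 was higher too, with 2, 21 and 0 UMIs in the interfollicular cells. Serpinb2, a serine protease inhibitor of activated keratinocytes, was lower, at 347, 85.7 and 49.6 CPM in members against 8122, 2397 and 388 CPM (-4.29 ± 0.33 SE, edgeR adjusted p = 1.76e-06). The bicarbonate transporter gene Slc4a8, Serpinb7 and the matrix metalloproteinase Mmp3 were lower as well, and members held at most 9 UMIs of each in any library. Of 32 basement membrane and hemidesmosome genes 13 were lower and 3 higher, and of 28 immediate early and heat shock genes 9 were lower and 2 higher.

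**Figure D4:**
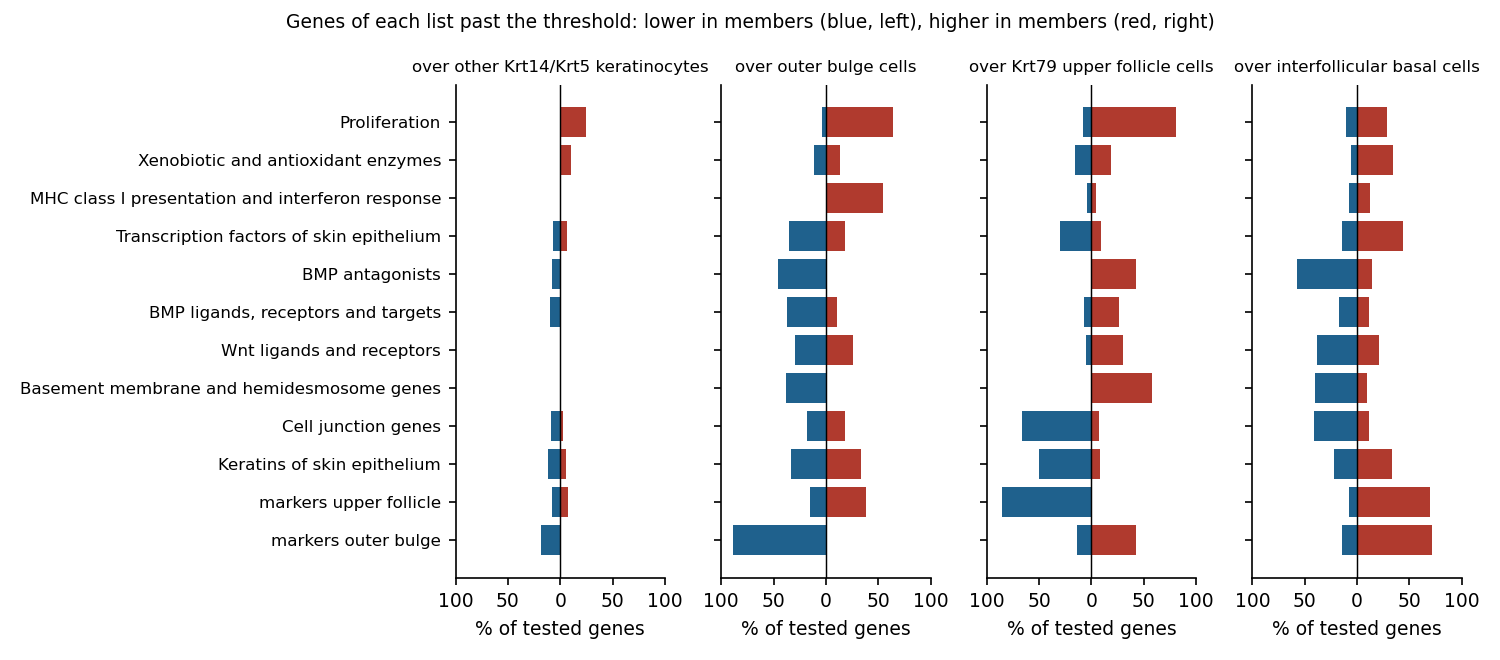
Percent of tested genes of 12 lists that were called lower (blue, to the left) or higher (red, to the right) in members, against each of 4 cell classes. Proliferation genes have more calls to the right than to the left in all 4 panels, and basement membrane genes are lower against the outer bulge (13 of 34) and higher against Krt79 cells (18 of 31).

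MHC class II transcripts were unevenly spread over members at P38. Cd74, the invariant chain of class II molecules, was at 111, 37.7 and 13.8 CPM in members against 14.7, 79.7 and 19.7 CPM (0.51 ± 0.72 SE, edgeR adjusted p = 0.8) and did not pass. A UMI of Cd74, H2-Aa, H2-Ab1 or H2-Eb1 was held by 24 of 88, 19 of 66 and 90 of 334 members. At P38, 5 members in which these genes made up at least 0.1% of UMIs carried 73.0% of them. None of those 5 held a UMI of the leukocyte genes Ptprc, Cd207, Tyrobp, Cd3e or Cd3g. At 6 months no member reached that level, and at 12 months 2 of 334 did and carried 15.4% of these UMIs, 1 of them with a UMI of those leukocyte genes. Cd74 in Ptprc cells was at 27580 and 31990 CPM at 6 and 12 months.

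Between ages only levels of single libraries can be given, with no test. Among 1428 genes with at least 100 CPM in members of P38 or 12 months, 53 (3.71%) were at least 2-fold higher at 12 months and 229 (16%) at least 2-fold lower. The median log2 ratio was -0.13 in members and -0.09 in other keratinocytes. Krt6a, a keratin of activated and companion layer keratinocytes, was at 433, 40.3 and 2.21 CPM in members (log2 ratio of 12 months to P38 -7.61, exact interval -8.75 to -6.68) and at 1135, 1158 and 20.2 CPM in other keratinocytes. Lcn2, an antimicrobial lipocalin, was at 151, 26.6 and 2.46 CPM (-5.94, interval -7.02 to -5.04) in members. Plin2, a coat protein of lipid droplets, was at 406, 396 and 22.8 CPM in members (-4.15, interval -4.48 to -3.84) and had a ratio of -2.16 in other keratinocytes. Plin2 was at like levels at P38 and 6 months, whereas Krt6a and Lcn2 were already lower at 6 months than at P38. The other genes with the lowest ratios were Ifi202b (-5.26), F3 (-5.06), Sprr1a (-4.49), Cldn4 (-4.44) and Has2 (-4.09), with ratios in other keratinocytes of -4.15, -2.63, -3.99, -2.32 and -3.71.

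Of the 8 genes with the highest ratios, 5 were histone or predicted transcripts. Hpgd, which degrades prostaglandins, was at 13.0, 26.6 and 109.8 CPM in members (3.08, interval 2.48 to 3.75) and at 16, 7.41 and 20.2 CPM in other keratinocytes. Gm10076 was at 17.5, 1158 and 1399 CPM in members and 20.7, 962 and 1434 CPM in other keratinocytes, and Hist1h2ap at 6.21, 62.6 and 293 and 2.34, 33.7 and 123 CPM. The same direction held in both classes for each. The remaining genes were Gm26802 (5.62), Fam71a (4.73), Gm10260 (3.29), Hist1h2ae (2.91) and Cenpb (2.09) in members. The P38 counts were made with Cell Ranger 6.1.2 and those of 6 and 12 months with 6.0.0 per the file headers, and the part of the version was not tested.

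Of 6 chemokine, cytokine and growth factor genes of 1 list at this level, 5 were at least 2-fold lower at 12 months in members (Ccl2, Cxcl1, Cxcl14, Cxcl16 and Areg). Ccl2, a monocyte attractant, was at 354, 299 and 23.6 CPM in members and 238, 135 and 15.8 CPM in other keratinocytes. Of 27 immediate early and heat shock genes, 4 were higher at 12 months (Fos, Fosb, Egr1 and Ier2) and 10 lower. Fos, an immediate early gene that responds to tissue dissociation, was at 1420, 2327 and 5422 CPM in members and 3100, 3098 and 5875 CPM in other keratinocytes. Hspa1a, a heat shock protein, was at 1264, 1772 and 218 CPM in members and 1506, 1259 and 196 CPM in other keratinocytes. The part of cell handling in these levels was not tested.

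**Figure D5:**
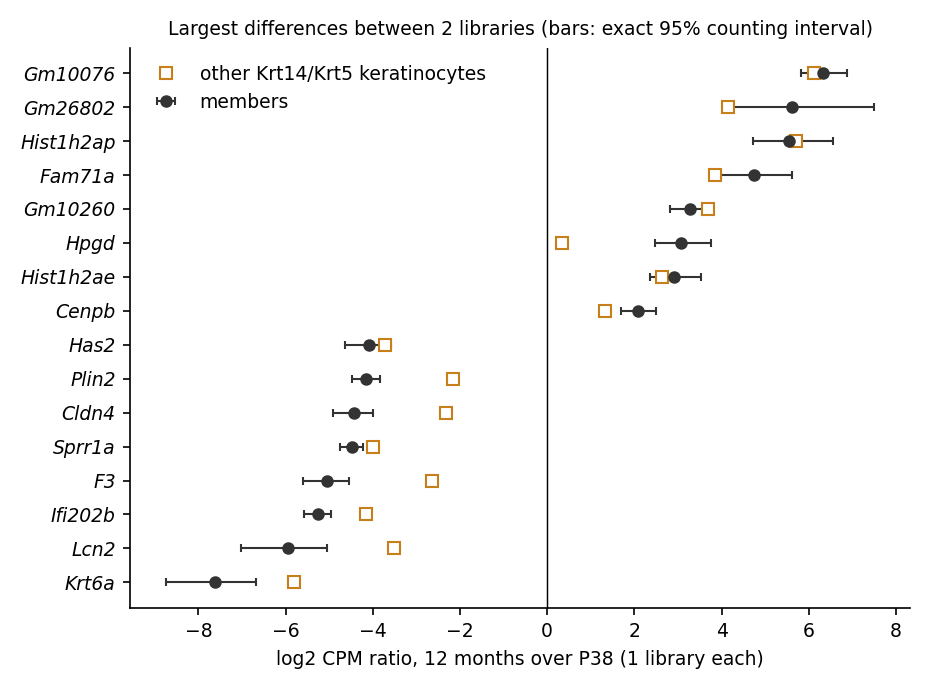
Log2 ratio of CPM at 12 months over P38 (horizontal axis) for the 8 genes with the highest and the 8 with the lowest ratio in members, with exact 95% counting intervals, and in other keratinocytes (open squares), 1 library per age. All 16 genes have the same sign in both classes, and Hpgd stands at 3.08 in members and 0.34 in other keratinocytes.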

How the data were processed

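UMI counts per gene and cell of 3 libraries, covering 32285 genes, were used as the authors deposited them, in filtered Cell Ranger matrices on mm10. Submitters' notes name Cell Ranger 6.1.2, and the file headers give 6.1.2 for P38 and 6.0.0 for 6 and 12 months. Cells with over 200 and under 5000 genes and under 15% mitochondrial UMIs were kept, after the methods of the study. These limits left more cells at 6 months, and slightly more at 12 months, than the study states, and the reason was not tested. P38 had 2397 barcodes and 40509290 UMIs, 6 months 4761 and 48722038, and 12 months 5421 and 48887123. Samples of other ages and chromatin data were not analysed here.

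UMI counts were summed per library and cell class. Members were compared with each class in edgeR 4.0.16 (quasi-likelihood test, TMM, filterByExpr, the library as a block, two-sided, Benjamini-Hochberg over all genes tested, threshold 0.05). Each library gave 1 sum of members and 1 of comparison cells, so the pairing comes from the shared library. With 1 library per age the p-values measure how evenly the difference between the classes held over these 3 libraries. Genes of a rule that chose cells were described only. On simulated counts for the comparison with other keratinocytes, 47.4% of genes changed by 1 and 94.9% of those changed by 2 on the log2 scale were recovered, with 7 false calls among 11971 genes. Genes changed by 1 were recovered in 53.1% against the outer bulge, 27.2% against Krt79 cells and 67.7% against interfollicular basal cells. All genes of a simulation shared 1 dispersion, so it does not cover genes that spread more than that.

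The members, the markers and the lists were chosen with earlier results of these data known. Genes named are the 7 markers, the 10 largest changes in each direction against other keratinocytes and the 5 in each direction against the other classes (adjusted p under 0.05, the same direction in every library, at least 50 CPM), up to 4 genes per list with further members as values, and the 8 highest and 8 lowest ratios between ages. A few genes that this rule or the lists would name are not reported here. Leukocyte genes in the account of class II transcripts were chosen after their values were seen. Alternatives were RLE size factors, DESeq2 1.42.0, no filter, no block, leaving out each library, other gates, Scrublet scores, deeper cells and other comparison cells. Software was Python 3.11.15, scanpy 1.11.5, scipy 1.17.1 and R 4.3.3.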

Additional observations from a re-analysis of the deposited data

Results flagged for a closer look

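Barcodes with 5000 or more genes were left out by the limits on kept cells, and 19, 29 and 9 of them at P38, 6 months and 12 months met the other limits of members. Their values enter no comparison. The log2 ratio of members over other keratinocytes had counting intervals on opposite sides of 0 in different libraries for 5 named genes. It was -1.33, -0.14 and 0.17 for Hes1, a target of Notch signalling, 0.72, 0.82 and -0.38 for the interferon-inducible Ifi202b and -0.12, 0.13 and -1.62 for thrombospondin 1 (Thbs1), which chose the interfollicular basal cells. It was -2.13, -2.65 and 0.24 for suprabasin (Sbsn), a gene of differentiating layers, and 0.86, 0.99 and -0.70 for the myelin gene Mbp. The difference between libraries was not tested, since each age has 1 library.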

How the results depend on the processing

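Against other keratinocytes, edgeR called 225 genes, and 496 were called by DESeq2, 985 with no low-count filter, 86 with at least 1 UMI of each gate gene and 342 after removal of the highest Scrublet scores. The share of calls higher in members was 48.0%, 35.1% with no filter and 36.5% with at least 3 UMIs of each gate gene. With no filter, 2636 genes were called against the outer bulge and 2362 against Krt79 cells, and DESeq2 called 899 against interfollicular basal cells. Leaving out 1 library gave 27 to 560 calls against other keratinocytes, 871 to 1733 against the outer bulge, 629 to 1648 against Krt79 cells and 1142 to 1303 against interfollicular basal cells. The cause of these moves was not tested.

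Both classes were read in the same library, so the library was a block. Without the block, edgeR called 0 genes against other keratinocytes (996 at an unadjusted p under 0.05), 547 against the outer bulge, 367 against Krt79 cells and 262 against interfollicular basal cells, the last with 53.8% higher in members against 42.2% with the block.

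Shares of Krt14/Krt5 cells were 10.0%, 4.80% and 25% with at least 1 UMI of each gate gene, 2.54%, 1.41% and 10.6% with at least 3 and 0.170%, 0.505% and 4.20% after thinning, and 6.48% at 6 months among cells with at least 1000 genes. Of 145 named genes tested against other keratinocytes, 46 were called, and 12, 9 and 43 of these remained called without P38, 6 months and 12 months, 45 with DESeq2 and 0 without the block. With at least 1 and at least 3 UMIs of each gate gene 20 and 39 remained, and with comparison cells that held no UMI of either gene 34. None of the 46 reversed its direction in the alternatives run, while Hes1, which was not called, had -0.36 on the log2 scale as reported and 0.05 without P38. The removal of barcodes shared between libraries was chosen after seeing the data and gave 229 calls. Members numbered 66 at 6 months, so genes with few UMIs there carry wide counting error.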
